A study of Mus musculus with 162 samples.

Results

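Tslp, Il33 and Il25 encode the epithelial cytokines thymic stromal lymphopoietin, interleukin-33 and interleukin-25, which together are called alarmins. Crlf2, Il7r, Il1rl1 and Il17rb encode receptor chains for them. These 3 ligand genes and 4 receptor genes were taken by symbol, and all 7 were found among the 46078 Ensembl gene identifiers of the count tables. Each was followed in mouse cheek skin, trigeminal ganglion and spinal cord after topical MC903 or its ethanol vehicle, in every group except wild-type day 12.

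Alarmins are made by barrier cells, above all keratinocytes, and are released or induced when the epithelium is irritated or damaged. TSLP binds a heterodimer of CRLF2 (also called TSLPR) and the IL-7 receptor alpha chain IL7R and signals through JAK and STAT5. IL-33 is stored in the nucleus and binds IL1RL1 (also called ST2) with the shared chain IL1RAP and the adaptor MYD88, while IL-25 binds IL17RB with IL17RA. Mast cells, basophils, dendritic cells, T cells and innate lymphoid cells carry these receptors, sensory neurons have been described to respond to TSLP, and the alarmins are best known for starting type 2 inflammation in atopic skin.

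MC903, or calcipotriol, is a vitamin D analog that induces TSLP in keratinocytes and gives mice a skin inflammation used as a model of atopic dermatitis. Adult male C57BL/6 mice were treated once daily with MC903 in ethanol or with ethanol alone. Per the study's methods the treatment was put on the cheek for skin and ganglion, whereas spinal cord, taken at its thoracic level, came from mice treated with a larger volume on the back. Bulk RNA-seq was made of cheek skin and of trigeminal ganglion, where the sensory neurons of the cheek have their cell bodies, and at day 8 of spinal cord. Uninjected wild-type mice were sampled at days 1, 2, 5 and 8, day 1 being within hours of the treatment. Further wild-type mice at day 8 were injected intraperitoneally with PBS or with 250 µg of aGr1, an antibody that depletes neutrophils. TSLPR.KO mice, a knockout of Crlf2, were sampled at days 8 and 12. Mice labelled BLT1.KO, a name that stands for a knockout of the leukotriene B4 receptor gene Ltb4r1, were sampled at day 8 in skin, and BLT1.KO here means libraries with that label, since counts of Ltb4r1 in them lay within or near the wild-type range. The ethanol controls of each knockout carry the same label, and the sources used here name no targeted cell type. The controls of the aGr1 mice received both the antibody and ethanol. In all, 144 of 162 libraries were used (61 of skin, 56 of ganglion and 27 of cord), and the labels do not say that replicates came from separate animals, so that p-values measure the spread between these libraries.

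Levels are given as cpm, counts per 1000000 counts that a library had in genes, and changes as log2 fold changes of MC903 over ethanol with the standard error (SE). The adjusted p is the Benjamini-Hochberg value of edgeR's quasi-likelihood F test, taken over every gene that entered a fit, and a gene is said to have risen or fallen where it was under 0.05 in skin and cord or under 0.1 in ganglion. Libraries held 15931871 to 67342879 counts. Keratinocyte marker genes summed to 3183 to 31512 cpm in skin, 3.08 to 277 in ganglion and 6.43 to 18.9 in cord, and sensory neuron markers to 1364 to 4281 cpm in ganglion and 54 to 211 in cord. Of the 18 wild-type day 12 libraries that were left out, 13 went against their tissue label by these sums, and none of the other skin and ganglion libraries did. For markers of another tissue or for the members, 5 libraries were set apart after seeing the data. In skin day 2 MC903 replicate 3, sensory neuron markers summed to 1042 cpm against 1.17 to 36.4 in all other skin libraries. Ganglion day 1 MC903 replicates 1 and 2 had low neuron and high glial marker sums. Ganglion day 8 TSLPR.KO MC903 replicate 1 had a keratinocyte sum of 143, although ganglion libraries not set apart reached 149. The last was 1 wild-type ganglion library at day 8, described with Crlf2. The choice is not a full list of unusual libraries, since B cell markers in skin reached 261 cpm against a median of 2.48. At day 8 uninjected wild-type libraries carry 2 styles of label, 1 of them with a bracketed tag. They are called cohorts A (with the tag) and B here and enter the day 8 wild-type fits as a term.

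On the GRCm38 assembly, Il33 lies on chromosome 19 (29925114 to 29960718, plus strand), Il1rl1 on chromosome 1 (40429570 to 40465415, plus strand), Crlf2 on chromosome 5 (109554709 to 109558993, minus strand) and Il7r on chromosome 15 (9505788 to 9530176, minus strand). Il25 (54932695 to 54935837, plus strand) and Il17rb (29996135 to 30008896, minus strand) are both on chromosome 14. Because Il33 and Il1rl1, a ligand and its receptor, both rose in skin at day 8, the sequences before their start sites are shown. Each gene has 2 annotated starts in RefSeq on GRCm38.p6, and counts per gene cannot separate the transcripts of the 2. The 250 bases before each start are given 5′ to 3′, with capitals for matches to 5 motifs searched on both strands.
Il33, first start, chr19:29924863-29925112 (plus strand): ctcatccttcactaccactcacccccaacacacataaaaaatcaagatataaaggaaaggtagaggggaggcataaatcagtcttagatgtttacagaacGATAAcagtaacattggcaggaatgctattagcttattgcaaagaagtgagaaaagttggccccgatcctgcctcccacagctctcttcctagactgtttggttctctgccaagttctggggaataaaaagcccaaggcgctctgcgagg
Il33, second start, chr19:29945540-29945789 (plus strand): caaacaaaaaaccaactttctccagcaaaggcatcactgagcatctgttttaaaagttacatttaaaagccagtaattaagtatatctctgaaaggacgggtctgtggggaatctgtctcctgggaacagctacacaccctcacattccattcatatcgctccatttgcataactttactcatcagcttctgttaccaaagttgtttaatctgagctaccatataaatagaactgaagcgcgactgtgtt
Il1rl1, first start, chr1:40429320-40429569 (plus strand): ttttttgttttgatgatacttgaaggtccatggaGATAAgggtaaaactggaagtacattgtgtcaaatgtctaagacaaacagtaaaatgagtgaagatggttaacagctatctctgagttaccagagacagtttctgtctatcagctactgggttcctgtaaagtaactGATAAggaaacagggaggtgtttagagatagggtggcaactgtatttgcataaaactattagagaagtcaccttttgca
Il1rl1, second start, chr1:40439379-40439628 (plus strand): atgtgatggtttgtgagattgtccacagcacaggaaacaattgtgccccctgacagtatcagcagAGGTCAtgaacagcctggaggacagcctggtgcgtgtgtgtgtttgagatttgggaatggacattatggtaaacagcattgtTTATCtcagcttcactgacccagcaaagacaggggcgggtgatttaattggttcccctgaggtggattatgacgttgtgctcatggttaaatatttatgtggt

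The motifs were the nuclear receptor half-site AGGTCA, which vitamin D receptor dimers bind in pairs, the AP-1 site TGANTCA, the GATA site GATAA, the STAT site TTCNNNGAA and the NF-kB site, searched from 250 bases before to 50 bases after each start. The half-site was matched once, 185 bases before the second Il1rl1 start. GATAA was matched 150 bases before the first Il33 start and 216 and 79 bases before the first Il1rl1 start, and on the reverse strand 103 bases before the second Il1rl1 start, while the second Il33 window held no match. Over all 32851 mouse promoters of this length, 16.3% held the half-site, 7.81% the AP-1 site, 25.4% GATAA, 8.30% the STAT site and 8.46% the NF-kB site. Promoter sequences were matched for 5 of the 7 genes. Il7r had a STAT match 142 bases before its start, Il17rb an AP-1 match 104 bases before and a GATAA match 39 bases after its start, and the Crlf2 window had no match.

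Tslp, on chromosome 18, had the largest log2 fold change of the 7 genes in every skin comparison except day 1 and BLT1.KO, and it passed the test in 7 of the 9 skin comparisons, each time upwards. At day 1 the 4 MC903 libraries held 0.9753, 1.26, 1.82 and 2.05 cpm and the 4 ethanol libraries 1.06, 1.64, 0.812 and 0.782. These ranges overlapped (log2 fold change 0.50, SE 0.32, adjusted p = 0.327), and the comparison called 13% of all genes. At day 2 the MC903 libraries held 560.4, 355 and 631 cpm and the ethanol libraries 2.10 and 3.21. Every MC903 library lay far above both ethanol libraries, yet the log2 fold change of 7.49 (SE 0.60) had an adjusted p of 0.0814, in a comparison where edgeR called 0% of genes, 1191 genes had an unadjusted p under 0.05 and DESeq2 called 280. Without the MC903 library that carried sensory neuron markers the adjusted p was 0.0100. The change in the effect from day 1 to day 2 was itself past the threshold, at 6.95 on the log2 scale (SE 0.54, adjusted p = 0.000216), where 0.329% of all genes were called.

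At day 5 Tslp stood at 167, 157 and 253 cpm with MC903 and at 2.43, 2.29 and 0.795 cpm with ethanol. The groups were far apart, with a log2 fold change of 6.67 (SE 0.38, adjusted p = 7.72e-05), and 14.9% of all genes were called on that day. At day 8 the MC903 libraries divided by cohort: those of cohort A held 4.86, 5.66 and 15.9 cpm and those of cohort B 127.2 and 136, while the 6 ethanol libraries ran from 0.617 to 3.03 with a median of 1.87. All 5 MC903 libraries exceeded all 6 ethanol libraries, and Tslp rose 21.5-fold (log2 4.43, SE 0.57, adjusted p = 0.000134), among the 23.4% of genes called. Within cohort A alone the log2 fold change was 2.98 (adjusted p = 0.0109) and within cohort B alone 5.81 (adjusted p = 5.65e-07). The difference between the cohorts, 2.85 (SE 0.67), had an adjusted p of 0.0968 in a test that called 0% of genes, and what separates the cohorts is not given in the labels. The difference between the day 8 and day 5 effects was -2.25 (adjusted p = 0.17), where 1.62% of genes were called.

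In PBS-injected mice at day 8 Tslp was at 67.8 and 64.6 cpm with MC903 and at 1.72, 4.05 and 1.74 with ethanol, a log2 fold change of 4.76 (SE 0.41, adjusted p = 0.00294) in a comparison that called 3.99% of genes. With aGr1 it was at 86.8, 101, 28.7 and 178 cpm against 1.66, 1.75, 2.44 and 1.78, a log2 fold change of 5.33 (SE 0.52, adjusted p = 0.000125), where 32.6% of genes were called. Groups did not overlap in either. The aGr1 effect was larger than the uninjected wild-type effect by 0.91 on the log2 scale, a difference that did not pass the test (adjusted p = 0.574) while 4.56% of all genes did.

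Tslp also rose in mice without its receptor. In TSLPR.KO skin at day 8 it stood at 251, 126.3 and 92.2 cpm with MC903 and at 1.87 and 1.04 cpm with ethanol, and at day 12 at 86.4, 37.4, 72.5 and 66 against 1.21, 2.19 and 0.958. No MC903 library came near an ethanol library on either day. The log2 fold changes were 6.75 (SE 0.53, adjusted p = 0.000554) at day 8, where 2.44% of genes were called, and 5.36 (SE 0.35, adjusted p = 0.000116) at day 12, where 10% were. The knockout effect at day 8 was 2.36 larger than the wild-type effect on the log2 scale, without passing the test (adjusted p = 0.316; 0.177% of genes called). Within the knockout the day 12 effect minus the day 8 effect was -1.45, again short of the threshold (adjusted p = 0.607; 0% of genes called).

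In BLT1.KO skin the rise was present at lower absolute levels: 14.9, 24 and 8.74 cpm with MC903 against 1.11, 0.825 and 1.24 with ethanol. The MC903 values overlapped those of wild-type cohort A and were below those of cohort B. Tslp rose by 3.87 on the log2 scale (SE 0.41, adjusted p = 0.000214), 28.6% of all genes being called, and in the test of BLT1.KO against wild-type effects, which called 6.95% of genes, Tslp was not among them.

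**Figure D1:**
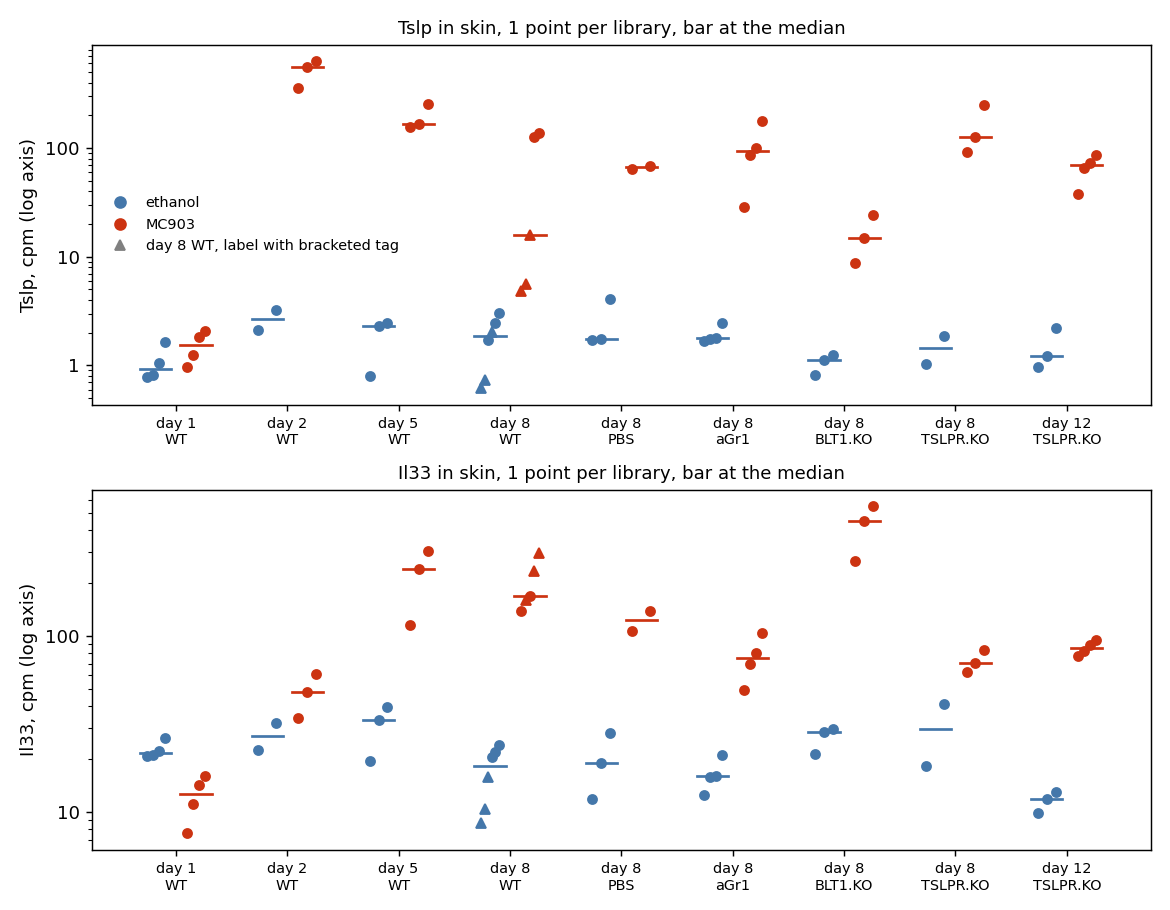
Tslp (top) and Il33 (bottom) in skin, in cpm on log axes, for the 9 groups of mice along the horizontal axis; each point is 1 library, bars mark medians, blue is ethanol, red is MC903 and triangles are cohort A of day 8 wild type. Tslp with MC903 overlaps the ethanol range at day 1 and reaches 355 to 631 cpm at day 2, while Il33 with MC903 is below ethanol at day 1 (7.58 to 16.1 cpm) and reaches 115.6 to 306 cpm at day 5.

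Il33 moved in the opposite direction first. At day 1 the MC903 libraries held 11.1, 14.3, 7.58 and 16.1 cpm and the ethanol libraries 21.1, 26.6, 22.2 and 20.8. All 4 treated libraries lay below all 4 controls, and Il33 fell by 0.94 on the log2 scale (SE 0.17, adjusted p = 0.00907). The call was kept in 13 of 14 alternative fits and lost with 1 fit over the 4 days (adjusted p = 0.111). In the same libraries 3 of 4 fibroblast and 3 of 5 macrophage marker genes were also called lower, beside 13% of all genes called. The part of these cells in the fall of Il33 was not tested. At day 2 Il33 was at 48, 60.8 and 34.5 cpm with MC903 against 32 and 22.6 with ethanol, without overlap and without a call (log2 0.77, SE 0.36). With all libraries the step in the effect from day 1 to day 2 was not called for Il33 by edgeR, while DESeq2 called it (1.71, adjusted p = 0.00118). Leaving out the MC903 library with neuron markers, a choice made after seeing the data, gave 1.0 at day 2 (adjusted p = 0.303). The step was then 1.91 (adjusted p = 0.00892).

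By day 5 Il33 had risen, to 242, 306 and 115.6 cpm against 39.6, 33.5 and 19.6 (log2 2.79, SE 0.37, adjusted p = 0.00292). At day 8 the wild-type MC903 libraries held 237, 297 and 161 cpm in cohort A and 139.6 and 171 in cohort B, and the 6 ethanol libraries 8.71 to 24.2 with a median of 18.3. The lowest treated library was well above the highest control. Il33 rose 12.8-fold (log2 3.67, SE 0.29, adjusted p = 1.91e-06), with log2 fold changes of 4.30 in cohort A and 2.83 in cohort B taken alone. The order of the cohorts was the reverse of that of Tslp, although for Il33 too the difference (-1.45, SE 0.35) was short of the threshold (adjusted p = 0.101).

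With PBS injections Il33 was at 139 and 107 cpm with MC903 against 18.9, 28.3 and 11.9 with ethanol (log2 2.68, SE 0.36, adjusted p = 0.0138), a call kept in 7 of 10 alternative fits. With aGr1 it was at 69.4, 80.4, 105 and 49.6 against 15.9, 16.2, 21.2 and 12.6 (log2 1.85, SE 0.21, adjusted p = 0.000288). The ethanol ranges overlapped, while every aGr1 MC903 library was below both PBS MC903 libraries. The aGr1 effect was smaller than that of uninjected wild-type mice (log2 difference -1.81, SE 0.39, adjusted p = 0.0136). That call did not hold with cohort B as the only wild-type libraries, where the difference was -0.98 (adjusted p = 0.109), and against the effect in PBS-injected mice, the injected controls, the difference of -0.78 (SE 0.42) did not pass (adjusted p = 0.553; 0.232% of genes called).

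The 2 receptor knockouts were not tested against each other for Il33. In TSLPR.KO skin at day 8 Il33 stood at 83.6, 70.3 and 62.4 cpm with MC903 and at 41.2 and 18.3 with ethanol. Treated libraries were all higher, but the log2 fold change of 1.31 (SE 0.32) was not past the threshold (adjusted p = 0.0709). DESeq2 (adjusted p = 0.00491), edgeR without a filter (0.00188) and a replicate block (0.00155) did call it. At day 12 the libraries held 77.6, 82.7, 89.5 and 95 cpm against 11.9, 13.1 and 9.86. The day 12 groups were tight and far apart (log2 2.70, SE 0.16, adjusted p = 6.35e-05). The difference of the day 8 effects between TSLPR.KO and wild type was -2.33 (SE 0.48, adjusted p = 0.065), and -1.51 (adjusted p = 0.255) with cohort B alone as wild type, and the difference between days 12 and 8 in the knockout was 1.35 (SE 0.33, adjusted p = 0.484), so neither passed by edgeR. The difference from wild type was called by DESeq2 (adjusted p = 0.000704) and by edgeR without a filter (0.0213). In BLT1.KO skin Il33 reached 269, 452 and 549 cpm with MC903 against 21.5, 28.6 and 29.9 with ethanol. These include the highest Il33 value of the skin libraries, and the log2 fold change was 3.97 (SE 0.32, adjusted p = 6.12e-05).

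Il25 was close to absent from skin. Of the MC903 libraries 28 of 31 held 3 counts or fewer, and none held more than 6, and of the ethanol libraries 21 of 30 held 3 or fewer. Only 5 of the 9 skin comparisons had enough counts to test it. It passed in 1: in BLT1.KO skin the ethanol libraries held 34, 8 and 27 counts (0.505, 0.161 and 0.550 cpm) and all 3 MC903 libraries 0. The mean of the ethanol libraries, 0.405 cpm, was 7.31-fold above a floor of 3 counts per treated library (mean 0.0555 cpm). The ethanol library at 0.161 cpm was nearer to that floor. By the edgeR fit Il25 fell with MC903 (adjusted p = 0.0114), and the difference of this effect from wild type was not past the threshold (adjusted p = 0.191). In wild-type skin at day 8, 1 of 6 ethanol libraries held 11 counts and the others 0 to 2, and no difference was detectable (adjusted p = 0.641).

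In skin, then, 2 of the 3 ligand genes rose with MC903, both called from day 5, with Tslp far above ethanol but not called at day 2. The receptors were called fewer times than Tslp and Il33. Crlf2 and Il1rl1 were called in 4 of 9 skin comparisons each, upwards each time. Il7r was called upwards in 2 and downwards in 1, and Il17rb upwards in 1. Comparisons of TSLPR.KO skin lack an intact Crlf2, which leaves 7 for that gene. The share of all genes called ran from 0% at day 2 to 32.6% with aGr1. In wild-type skin at day 8 the log2 fold changes of the receptors were below those of Tslp and Il33, while with aGr1 that of Il1rl1 (2.40) was above that of Il33 (1.85). In bulk skin more receptor message can come from more cells that carry it or from more message per cell, and these cannot be told apart.

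Crlf2, the TSLP-binding chain, was first checked as the targeted gene. In TSLPR.KO skin at day 8 it was at 0.0691 to 0.277 cpm (2 to 8 counts). At day 12 it was at 0.405 to 0.756 cpm with ethanol (18 to 30 counts) and at 0.651 to 1.34 with MC903 (30 to 60 counts), which overlapped and was not called. Wild-type skin held 2.24 to 9.08 cpm with ethanol and 2.28 to 15.4 with MC903, so that all knockout libraries were below all wild-type libraries and the day 12 libraries held more residual message than the day 8 ones. Between ethanol-treated TSLPR.KO and wild-type skin at day 8 the log2 difference was -4.04 (SE 0.50, adjusted p = 0.0602), in a comparison of 2 against 6 libraries that called 0.0118% of genes. DESeq2 and edgeR without a filter on counts did call it.

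In wild-type skin Crlf2 was at 3.10, 4.76, 3.89 and 4.59 cpm with MC903 and 3.50, 4.88, 4.55 and 4.26 with ethanol at day 1, and at 2.28, 4.64 and 2.47 against 3.25 and 3.11 at day 2. These groups overlapped. At day 5 it was at 10.1, 5.27 and 6.76 cpm against 4.50, 3.01 and 2.96, with every MC903 library higher but an adjusted p of 0.0633 (log2 0.97, SE 0.30).

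At day 8 Crlf2 was at 11.8, 12.3 and 7.74 cpm in cohort A and 7.80 and 4.19 in cohort B with MC903, against 2.24 to 3.94 (median 3.54) with ethanol. It rose 2.5-fold (log2 1.32, SE 0.20, adjusted p = 0.000486), while within cohort B alone the log2 fold change was 1.13 (adjusted p = 0.0608). PBS-injected mice gave 13 and 13.7 cpm against 4.75, 5.08 and 2.88 (log2 1.69, SE 0.29, adjusted p = 0.0312), and aGr1 mice 13.2, 15.4, 14 and 12.2 against 9.08, 6.33, 6.28 and 3.70 (log2 0.75, SE 0.22, adjusted p = 0.0264). The treated libraries of both groups exceeded their controls without overlap, and the PBS call was kept in 5 of 10 alternative fits. BLT1.KO skin gave 8.38, 9.25 and 11.1 cpm against 3.47, 3.68 and 4.36 (log2 1.29, SE 0.22, adjusted p = 0.00298).

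Il7r, the chain that the TSLP and IL-7 receptors share, fell at day 1 and rose at day 8. At day 1 it was at 3.50, 2.09, 2.60 and 3.28 cpm with MC903 and at 4.05, 5.66, 6.04 and 11.8 with ethanol, so that all treated libraries were below all controls (log2 -1.36, SE 0.36, adjusted p = 0.0374). T cell marker sums moved the same way, 7.58 to 10.5 cpm with MC903 against 12.8 to 31.5 with ethanol. Of 6 T cell genes 2 were called lower, beside 13% of all genes called, and the part of T cells in the fall was not tested. The call was kept in 7 of 14 alternative fits, being lost with 1 library left out or with 1 fit over the 4 days.

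At days 2 and 5 Il7r showed no separation, with 2.51 to 11.5 cpm against 4.29 and 5.91 at day 2 and 5.05 to 7.82 against 3.36 to 8.11 at day 5. At day 8 it was at 9.95, 16.4 and 11.7 cpm in cohort A and 11 and 13.3 in cohort B with MC903, against 2.02 to 6.01 (median 4.63) with ethanol. All treated libraries were higher, 3.15-fold on average (log2 1.65, SE 0.23, adjusted p = 0.000274). The day 8 effect exceeded the day 5 effect by 1.73 on the log2 scale (SE 0.39, adjusted p = 0.0372), a call lost with cohort B alone (1.41, adjusted p = 0.196) and in 13 of 17 fits that each left out 1 library.

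In injected mice Il7r separated less clearly. PBS skin held 12.4 and 8.08 cpm with MC903 against 4.33, 5.16 and 2.09 with ethanol, without overlap or a call (log2 1.44, SE 0.41, adjusted p = 0.125). With aGr1 the MC903 libraries held 10.5, 8.85, 13.4 and 12.9 cpm and the ethanol libraries 20.5, 10.4, 5.11 and 3.44. The wide controls spanned the treated range (log2 -0.16, SE 0.48, adjusted p = 0.824). T cell marker sums in those controls ranged from 8.31 to 69.7 cpm against 7.98 to 13.9 with MC903. Of 6 T cell genes 4 were called lower, beside 32.6% of all genes called. The aGr1 effect differed from the uninjected effect by -1.80 (adjusted p = 0.0574).

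In TSLPR.KO skin at day 8 Il7r was at 8.45, 6.23 and 6.29 cpm with MC903 against 12.8 and 6.24 with ethanol (log2 -0.42, adjusted p = 0.597), and the difference from wild type, -2.04 (SE 0.42), had an adjusted p of 0.065. At day 12 it was at 24.5, 14.7, 10.6 and 13.7 against 8.03, 8.72 and 8.35, with all treated libraries higher but no call (log2 0.71, adjusted p = 0.153). BLT1.KO skin had higher ethanol levels than wild type, 10.1, 12 and 11.1 cpm, a log2 difference of 1.21 (SE 0.29, adjusted p = 0.0167) in a comparison of ethanol libraries that called 19.9% of genes. On top of this Il7r rose with MC903 to 18.7, 18.9 and 14.9 cpm (log2 0.62, SE 0.16, adjusted p = 0.0209). The labels do not say whether BLT1.KO and wild-type libraries were prepared together. A difference in level between these lines cannot be told apart from one between preparations.

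Il1rl1 encodes the IL-33 receptor ST2 in a membrane-bound and a soluble form, which gene counts do not separate. At day 1 it was at 8.55, 6.49, 4.15 and 6.47 cpm with MC903 against 5.70, 10.6, 11.8 and 7.34, which overlapped (log2 -0.51, adjusted p = 0.152). At day 2 the libraries held 15.9, 15.5 and 10.9 cpm against 6.83 and 6.57 (log2 1.02, SE 0.39, not called), and at day 5 29.5, 18.2 and 24.8 against 15.5, 15.2 and 5.60 (log2 0.96, SE 0.29, adjusted p = 0.0599). On both days all MC903 libraries were above all ethanol libraries, and without the day 2 library that stood apart the day 2 value was 1.21 (adjusted p = 0.29).

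At day 8 Il1rl1 was at 20.6, 44.7 and 18.7 cpm in cohort A and 15.3 and 26.5 in cohort B with MC903, against 5.12 to 10.6 (median 6.98) with ethanol. It rose 3.54-fold (log2 1.82, SE 0.26, adjusted p = 0.00029). It rose as well in PBS skin, with 27.1 and 36.7 cpm against 6.77, 7.74 and 2.88 (log2 2.50, SE 0.42, adjusted p = 0.0284), and in aGr1 skin, with 35.8, 49.8, 39.1 and 28 against 6.72, 5.26, 6.28 and 4.26 (log2 2.40, SE 0.19, adjusted p = 3.72e-05). No treated library overlapped its controls, and the PBS call was kept in 7 of 10 alternative fits.

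In TSLPR.KO skin the same gene was at 15.9, 9.13 and 5.67 cpm with MC903 against 9.06 and 6.38 with ethanol at day 8, and at 7.71, 8.42, 13.7 and 5.56 against 5.40, 6.08 and 2.90 at day 12. The ranges overlapped on both days, with log2 fold changes of 0.42 and 0.71 (adjusted p = 0.177 at day 12). The difference of the day 8 effect from wild type, -1.37, did not pass (adjusted p = 0.283). BLT1.KO skin held 69.9, 52.7 and 40.7 cpm against 14.3, 19.4 and 20.9, which include the highest Il1rl1 value of each treatment. Its ethanol libraries exceeded those of wild type by 1.45 on the log2 scale (SE 0.26, adjusted p = 0.00487), where 19.9% of genes were called. This difference between lines cannot be told apart from one between preparations. MC903 raised the gene further (log2 1.53, SE 0.21, adjusted p = 0.000868).

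Mast cells and basophils are known for high ST2, and their markers were read beside Il1rl1 in wild-type, aGr1 and TSLPR.KO skin. In wild-type skin at day 8, where 23.4% of all genes were called, 5 of 6 mast cell genes were called higher (summed 137 to 238 cpm with MC903 against 79.6 to 112.9) and 3 of 3 basophil genes (18.1 to 36.2 against 2.65 to 3.62), and in aGr1 skin, where 32.6% were, 5 of 6 (276 to 326 against 88.3 to 143) and 3 of 3. In TSLPR.KO skin at day 8, 0 of 6 mast cell genes were called (141 to 154 against 86.2 to 135), in a comparison that called 2.44% of genes in all. Of 2 basophil genes tested 0 were called (2.58 to 6.98 against 3.22 to 4.84). All mast cell sums with MC903 were thus above their controls there, while the values of Il1rl1 overlapped. Neutrophil genes rose with MC903 in wild-type (4 of 5; 27.4 to 69.5 cpm against 7.27 to 13.2) and aGr1 skin alike (4 of 5; 33.2 to 38.4 against 4.22 to 9.65). The part of these cells in the receptor levels was not tested.

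Il17rb, the IL-25-binding chain, passed in 1 skin comparison. At day 1 it was at 6.94, 5.13, 4.62 and 5.51 cpm with MC903 against 2.71, 4.70, 2.89 and 1.78 with ethanol, overlapping by 1 control (log2 0.86, SE 0.22, adjusted p = 0.0335), and 6 of 14 alternative fits kept the call. At day 8 it was at 3.85 to 6.77 cpm against 2.30 to 7.17 in wild-type skin (log2 0.15, SE 0.26, adjusted p = 0.734). In BLT1.KO skin 3.42, 1.95 and 3.07 cpm stood against 4.86, 5.61 and 3.53, with all treated libraries lower but no call (log2 -0.77, SE 0.28, adjusted p = 0.0723).

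**Figure D2:**
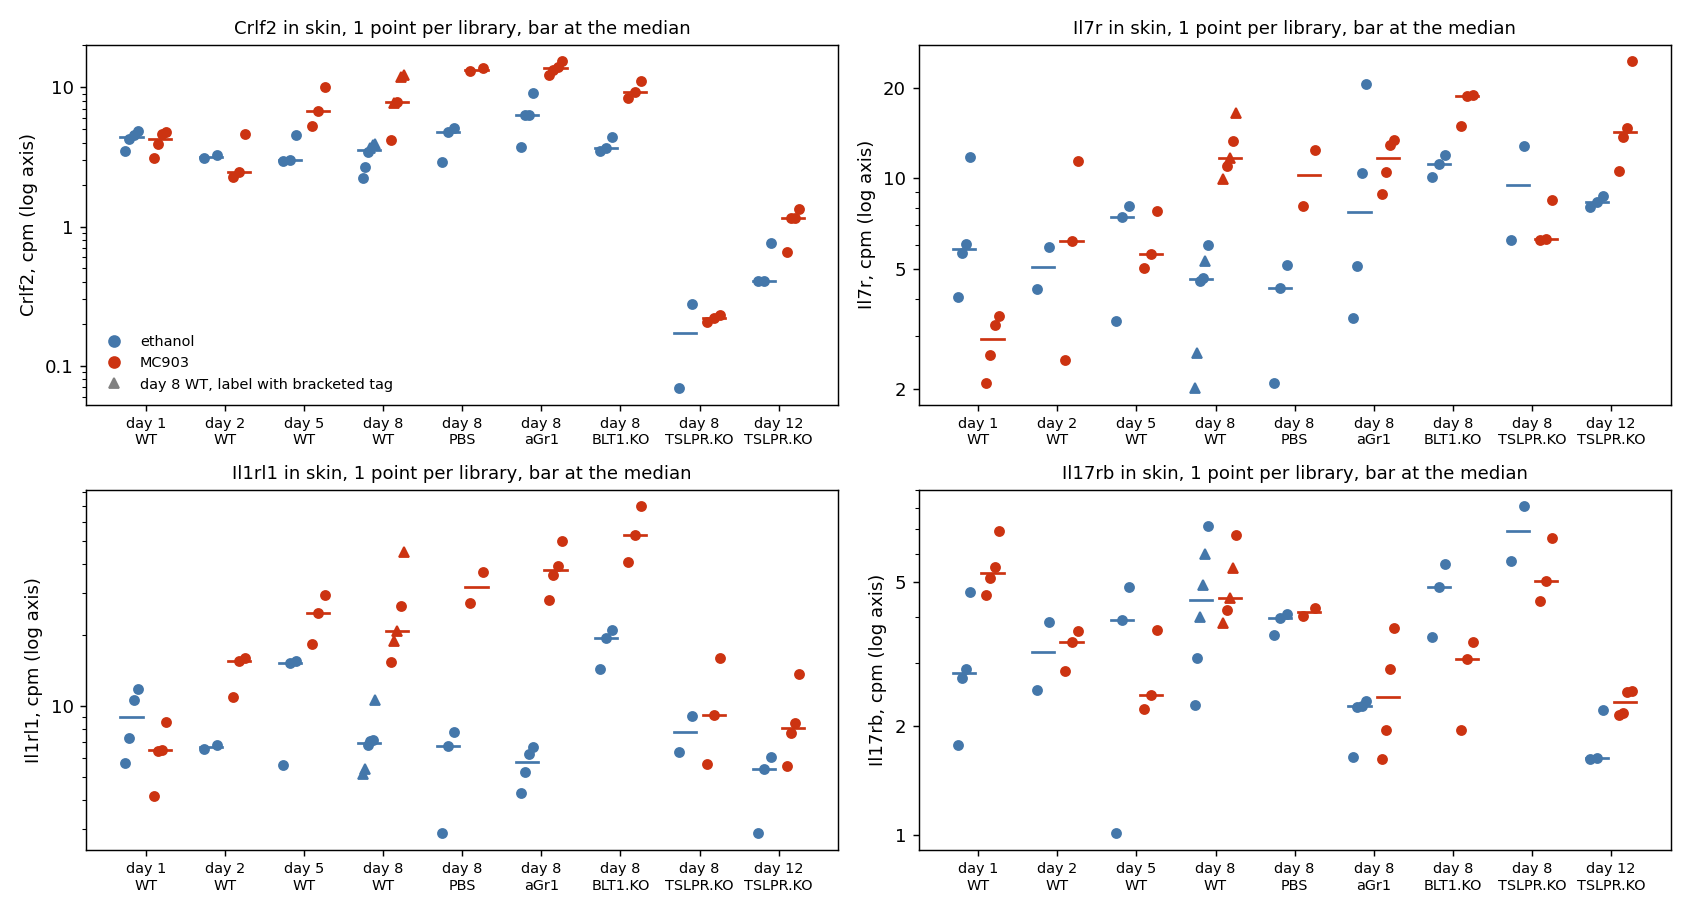
Crlf2, Il7r, Il1rl1 and Il17rb in skin, in cpm on log axes, 1 point per library with bars at medians, blue ethanol and red MC903, triangles cohort A. Crlf2 in TSLPR.KO skin lies at 0.0691 to 1.34 cpm, Il1rl1 with MC903 is above ethanol in wild-type, PBS, aGr1 and BLT1.KO skin at day 8, and Il17rb shows no such separation in the day 8 wild-type groups.

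The targeted gene of the BLT1.KO line, Ltb4r1, was at 2.33 to 3.70 cpm in its ethanol and 10.6 to 15.1 cpm in its MC903 libraries. Wild-type skin ranged from 2.52 to 10.5 and from 7.74 to 77.6 cpm, so that the counts of this gene did not mark the line and rose with treatment within it. In BLT1.KO skin 6 of the 7 members of the alarmin group were called, beside 28.6% of all genes, Il17rb being the exception.

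**Figure D3:**
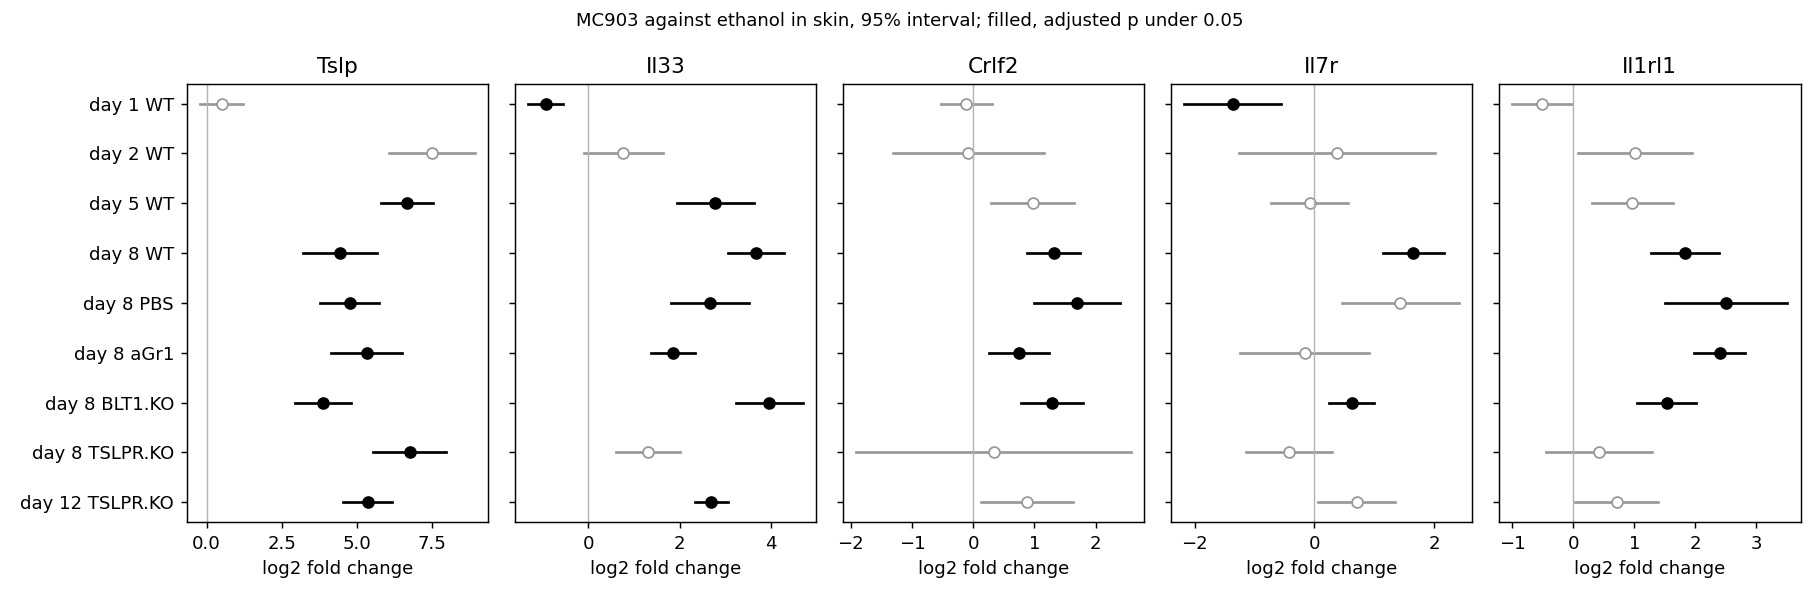
Log2 fold changes of MC903 over ethanol in skin for Tslp, Il33, Crlf2, Il7r and Il1rl1, 1 line per group of mice, with 95% intervals from the edgeR fit; filled black points have an adjusted p under 0.05 and open grey points do not. Tslp lies between 3.87 and 7.49 in every group except day 1, Il33 is below 0 at day 1 alone, and the receptor changes lie between -1.36 and 2.50.

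Over the 9 skin comparisons the effects of ligands and receptors were set side by side as a description with 9 points, each point of a pair coming from the same libraries. Pearson's r between log2 fold changes was 0.65 for Il33 with its receptor gene Il1rl1 and 0.28 for Tslp with Il7r. Without the Crlf2 knockout (7 comparisons) it was 0.13 for Tslp with Crlf2, against 0.87 for Il33 with Crlf2 and 0.74 for Crlf2 with Il1rl1. Tslp and Il33 had an r of 0.28. In uninjected wild-type skin Tslp was highest at day 2. Crlf2, Il7r and Il1rl1 were called higher at day 8, and the day 8 effect exceeded the day 5 effect by the test for Il7r but not for Crlf2 (0.36, adjusted p = 0.68) or Il1rl1 (0.86, adjusted p = 0.338). DESeq2 called both of these at day 5 (adjusted p = 0.0184 and 0.0113). The genes whose effects over the 9 comparisons were most like those of Tslp, among 17396 genes, were Rpl31-ps10 (r = 0.965), Krcc1 (0.961), Atp6v1h (0.959), Rps18 (0.959) and Rpl31 (0.956), with log2 fold changes from -0.37 to 0.73. Those most like Il33 were Cotl1 (0.976), Rab5c (0.971), Casp8 (0.962), Runx3 (0.959) and Cxcl16 (0.959). With 9 points and 17396 genes the top r can be this high without any link, and a link was not tested.

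Genes around the alarmins were read from 3 lists. Of 14 co-receptor and signalling genes, 9 rose and 0 fell in wild-type skin at day 8, where 23.4% of all genes were called (median log2 0.52 against -0.03 over all genes tested), among them the common gamma chain Il2rg (1.92), Jak2 (1.25), Myd88 (1.03) and Il17ra (0.69). At day 1, beside 13% of all genes called, 5 fell and 0 rose, among them Il2rg (-1.15), Il7 (-1.20) and Stat5a (-0.63). Counts of higher and lower genes were 2 and 0 at day 5 (14.9% of all genes called), 3 and 0 with PBS (3.99%), 5 and 4 with aGr1 (32.6%), 5 and 2 in BLT1.KO (28.6%), 0 and 0 in TSLPR.KO at day 8 (2.44%) and 4 and 0 at day 12 (10%).

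Of the type 2 effector genes that these cytokines are known to induce, 6 of 8 tested rose in wild-type skin at day 8, among them Il13 (2.99), Il4 (2.92), Arg1 (2.88) and the chemokine gene Ccl17 (2.59), and the list median was 2.32. The shares of all genes called are those just given. In BLT1.KO skin 4 rose and 2 fell, with Areg, which encodes amphiregulin, at 4.85, Il13 at 3.99, Il4 at 3.61 and Arg1 at 3.45. TSLPR.KO skin had 1 called at day 8, Areg (2.90), of 9 tested, with a median of -0.80, and 2 up and 3 down at day 12, with Areg (2.07) and Arg1 (1.38) higher and Il13 (-2.51), Ccl24 (-1.59) and Ccl11 (-1.14) lower. Il13 was thus lower with MC903 in the knockout at day 12 and higher in wild type at day 8, on different days. PBS skin had 3 higher and 0 lower, and aGr1 skin 3 higher and 2 lower.

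Of 10 genes for vitamin D signalling and for proteases described upstream of TSLP, 4 or 5 rose and 0 to 3 fell in each skin comparison other than day 2, where no gene was called. Beside them, 2.44% (TSLPR.KO at day 8) to 32.6% (aGr1) of all genes were called. Cyp24a1, the vitamin D hydroxylase that marks receptor activation, rose at day 1 (8.38 on the log2 scale), day 5 (9.61) and day 8 (7.24). It also rose in TSLPR.KO at day 8 (7.59) and in BLT1.KO (7.01). At day 1 its rise stood beside a fall of Il33 and overlapping Tslp values. The kallikrein protease genes Klk13 (4.48) and Klk6 (3.79) rose at day 8 in wild-type skin.

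In the trigeminal ganglion no member passed the test in any of 8 comparisons. Those comparisons called 0% of genes at day 1, 0% at day 2, 0.00823% at day 5, 0.16% at day 8, 3.36% with PBS, 1.88% with aGr1, and in TSLPR.KO 0% at day 8 and 0.304% at day 12, at an adjusted p under 0.1. Where edgeR called 0, 2034 genes at day 1, 1527 at day 2 and 1886 in TSLPR.KO at day 8 had an unadjusted p under 0.05. Leaving out the ganglion libraries that stood apart gave 0 members called as well.

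Tslp was near 0 in most ganglion libraries, with 3 counts or fewer in 19 of 27 ethanol and 17 of 29 MC903 libraries. Its highest value was 7.61 cpm in an ethanol library at day 2, beside 2.87 in the other, against 0.804, 0.632 and 0.725 with MC903. The direction was opposite to that of skin and not called (log2 -2.88, SE 0.44, adjusted p = 0.725), although DESeq2 (adjusted p = 9.72e-05) and edgeR without a filter (5.1e-05) called it. Keratinocyte markers in those ethanol libraries summed to 89 and 51.3 cpm. At day 5 the highest ethanol value, 3.0 cpm, again came with the highest keratinocyte sum of its day, 149 cpm. The part of skin-type RNA in these values was not tested.

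Il33 was well expressed in ganglion, at 12.6 to 53.1 cpm (median 24.3) with ethanol and 11 to 138 (median 20.3) with MC903. The top values were 88.3 and 138 cpm in replicates 1 and 2 of day 1 MC903, against 38.2 and 28.4 in the other two and 21.2 to 38.4 with ethanol. Neuron markers in those replicates summed to 1364 and 1448 cpm against 2225 to 4281 in other ganglion libraries, and oligodendrocyte and astrocyte markers to 11765 and 9526 against 1793 to 5789. The log2 fold change was 1.16 (SE 0.43, adjusted p = 0.574) and without these libraries 0.10. At day 8 Il33 was at 18.4 to 27.4 cpm with MC903 and 14.8 to 44.9 with ethanol.

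Over all genotypes, Crlf2 (median 3.09 cpm with ethanol and 3.03 with MC903) and Il17rb (3.96 and 3.74) were the more abundant receptor genes in ganglion. Il1rl1 was at 1.55 and 1.48, and Il7r, without which CRLF2 does not form the TSLP receptor, was at 0.368 and 0.421. In wild-type ganglia alone the Crlf2 medians were 3.36 and 3.28. In TSLPR.KO ganglia Crlf2 was at 0 to 0.228 cpm at day 8 and 0.907 to 2.06 at day 12. Wild-type ganglia ranged from 0.117 to 7.58, and the lowest value, 4 counts in day 8 ethanol cohort B replicate 2, was within the knockout range and far below the other 4 of its group (3.19 to 3.58). That library also held the highest Il1rl1 of the ethanol ganglia (4.10 cpm) and 44.9 cpm of Il33. At day 12 the knockout libraries were not separated from wild-type libraries of days 2 and 5 (1.15 to 3.26 cpm). Il25 was measurable in ganglion, with medians of 0.521 and 0.593 cpm.

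In the spinal cord, Il33 fell. Uninjected MC903 libraries held 38.2, 42.1, 60.1 and 39.2 cpm and ethanol libraries 235, 206, 196, 205 and 199. The lowest control was well above the highest treated library, and the fall was 4.67-fold (log2 -2.22, SE 0.14, adjusted p = 3.91e-07), rank 35 by p among 25585 genes of which 12.2% were called. With aGr1 the 8 MC903 libraries ran from 20.6 to 45.8 cpm (median 35.1) and the 6 ethanol libraries from 85.4 to 115.8 (median 96.9). Again there was no overlap, with a 2.76-fold fall (log2 -1.46, SE 0.14, adjusted p = 1.51e-06), rank 50 of 27649 genes of which 11.3% were called. With PBS the values were 30.3 and 65.2 cpm against 111 and 96.0 (log2 -1.13, SE 0.35, adjusted p = 0.652), where edgeR called 0% of genes, 1571 had an unadjusted p under 0.05 and DESeq2 called 176.

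MC903 levels of Il33 overlapped between the 3 cord groups, while all ethanol libraries of uninjected mice were above all those of injected mice. The difference between the aGr1 and uninjected effects, 0.73 (SE 0.22), did not pass (adjusted p = 0.134; 0.532% of genes called). Both calls were kept in all 14 and 19 alternative fits. Il33 in the central nervous system is known from oligodendrocytes and astrocytes, and glial markers moved with it: Aqp4, an astrocyte water channel, fell by 1.11 on the log2 scale in uninjected and 0.82 in aGr1 cords, Fabp7 by 1.63 and 1.46 and Mog by 1.02 and 0.42, while Mbp was at -0.00 and -0.11 without a call. Markers of other cells moved as well, with 3 of 4 fibroblast genes called lower in uninjected cords (Col1a1 -2.31, Col1a2 -1.28 and Dcn -0.66) and 0 with aGr1, and of 4 endothelial genes Cdh5 (-0.93 and -0.45) and Tie1 (-1.07 and -0.51) called lower in both and Kdr (-1.04) in uninjected cords.

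As sums, oligodendrocyte and astrocyte markers ran from 15753 to 19760 cpm with MC903 against 17947 to 19325 in uninjected cords and overlapped. Macrophage or microglia markers summed to 66.5 to 108 cpm against 155 to 170, and with aGr1 to 95.3 to 161 against 154 to 178. The glial transcription factor gene Sox10 fell by 0.96 on the log2 scale in uninjected and by 0.44 in aGr1 cords. The part of cell composition or of how the cord was dissected in the fall of Il33 was not tested.

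**Figure D4:**
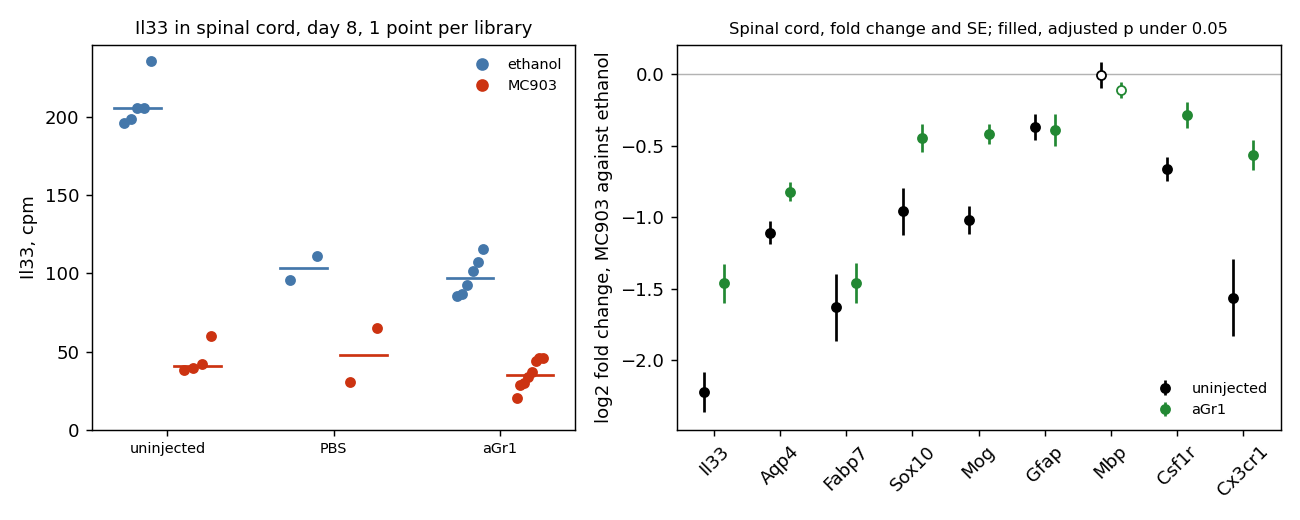
Left, Il33 in spinal cord at day 8 in cpm from 0, 1 point per library with bars at medians, blue ethanol and red MC903, for uninjected, PBS and aGr1 mice; all red points are below all blue points in each group. Right, log2 fold change with SE of Il33 and of glial and microglial marker genes in uninjected (black) and aGr1 (green) cords, filled where the adjusted p was under 0.05; Il33 falls by 2.22 and 1.46 and Mbp is at -0.00 and -0.11.

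None of the other members was called in cord. Crlf2, with a median of 6.30 cpm over all ethanol cords, was at 2.93 to 3.84 cpm with MC903 and 0.968 to 3.89 with ethanol in uninjected mice and at 6.20 to 8.37 and 6.78 to 8.65 with aGr1. Il17rb ran from 1.81 to 4.45 cpm over the cord libraries, Il7r from 0.232 to 1.23, Il1rl1 from 0.0633 to 0.939, Il25 from 0 to 1.09 and Tslp up to 0.173. In uninjected cords Il1rl1, the receptor for the ligand that fell, had a log2 fold change of -0.96 (adjusted p = 0.322).

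Levels between genes were compared per kilobase of exon, and those of a gene between tissues in ethanol-treated uninjected wild-type mice at day 8. Over all ethanol libraries, median cpm per kb in skin was 7.26 for Il33, 2.40 for Crlf2, 1.29 for Tslp, 1.28 for Il7r, 0.987 for Il1rl1, 0.958 for Il17rb and 0.0588 for Il25. These libraries include TSLPR.KO skin, which held little Crlf2. The ranges of Tslp (0.464 to 3.04), Il7r, Il1rl1 and Il17rb overlapped, so these neighbours do not differ beyond their spread. Pooled over all MC903 libraries, the medians of Tslp (54.5) and Il33 (31) were highest, but their order differed between groups: in uninjected wild-type skin at day 8 the means were 69.7 ± 22.5 for Il33 and 43.6 ± 50.8 for Tslp (SD, n = 5), and in BLT1.KO skin 147 ± 49.3 and 11.9 ± 5.78 (SD, n = 3). In cord Il33 was at 38.6 and in ganglion at 8.43, the highest of the 7 in both.

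Skin against ganglion called 61.4% of all genes, and 5 of the 7: Tslp (log2 4.94, adjusted p = 1.98e-05), Il7r (2.80, 3.03e-05) and Il1rl1 (1.69, 0.000689) were higher in skin, and Il33 (-0.90, 0.00912) and Il25 (-3.32, 0.0136) higher in ganglion. Crlf2 (0.10) and Il17rb (-0.36) did not pass. Cord against ganglion called 40.1% of genes. Il33 was higher in cord (2.82, adjusted p = 3.93e-06) and Il17rb lower (-1.35, 0.000267), and Il1rl1 was lower (-2.07, 0.0113) unless the ganglion library with low Crlf2 was left out (-1.28, 0.0881). The labels do not say whether tissues were sequenced together, and a difference between tissues cannot be told apart from a difference between preparations or, for cord, in the site of treatment.

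**Figure D5:**
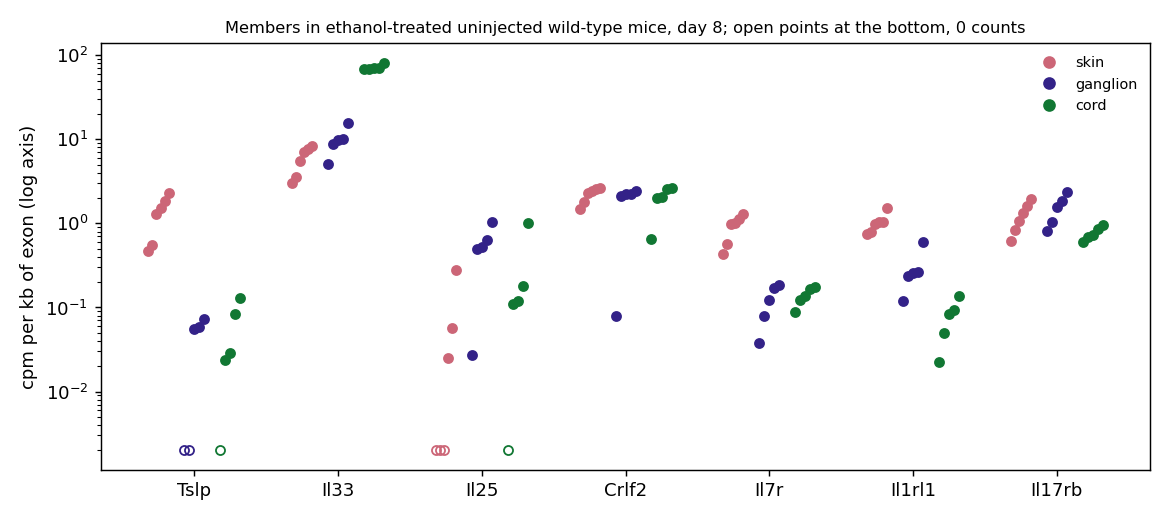
Level of the 7 genes in cpm per kb of exon on a log axis, in ethanol-treated uninjected wild-type mice at day 8, 1 point per library for skin, ganglion and cord, with open points at the bottom for 0 counts. Il33 is the highest gene in cord and ganglion, Tslp and Il7r are higher in skin than in ganglion, and Il25 lies at the bottom in skin.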

How the data were processed

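The deposited values are raw counts of reads per gene, 1 table per library, which the authors made from RNA-seq reads. Per the labels and the submitters' processing notes, TopHat2, Bowtie2, HTSeq and the mm10 build were used, and their settings are not given in the sources used here. Of 46078 identifiers 45143 were matched to a symbol. The self-made values are cpm (counts per 1000000 counts in genes), summed marker cpm and the fits.

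Each comparison was fitted on its own libraries with edgeR 4.0.16 in R 4.3.3 (TMM scaling, quasi-likelihood F test), over genes whose counts summed to at least 10, and p-values were adjusted by Benjamini-Hochberg over all of them. Thresholds were 0.05 in skin and cord and 0.1 in ganglion. There were 20 effects of MC903, 13 differences of effects and 5 comparisons of levels between ethanol groups, with the day 8 cohort as a term where both cohorts entered. The scripts were tested on simulated data.

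The 7 members, the pathway and marker lists and the tests were chosen with earlier results of these data known. Named genes were the members, the targeted genes, at most 4 called genes per list and comparison by smallest p, and for Tslp and Il33 the 5 genes with the most similar log2 fold changes in skin (mean of at least 1 cpm); glial and immune markers beside a result come from the marker lists, and list genes beyond that rule were chosen after their values were seen. Depth sets precision: in a library, 3 counts or fewer were taken as not distinguishable from 0, which covers counting error only.

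Same-numbered libraries were checked for pairing by the correlation of their deviations from group means over genes. Of 20 comparisons 2, ganglion day 5 and ganglion day 12 TSLPR.KO, had at least 3 pairs that all exceeded 0.1, and the range over all pairs was -0.60 to 0.64. The alternatives were RLE scaling, DESeq2 1.42.0, filterByExpr, no filter, a replicate block, the cohorts alone or without a term, 1 fit over the 4 days, and each library left out. Leaving out the libraries that stand apart and a crossed pairing in PBS cord were added after seeing the data. Wild-type day 12 was left out because of its tissue labels.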

Additional observations from a re-analysis of the deposited data

Results flagged for a closer look

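Of 111 groups of 4 to 10 libraries tested for 1 member each, 7 held a library whose gap to its nearest neighbour was large for the range of its group, and chance gives this in about 1 in 20 groups. In the ganglion at day 8, Crlf2 was at 6.97 cpm in wild-type MC903 cohort A replicate 1 and at 0.117 cpm in wild-type ethanol cohort B replicate 2, the library with Crlf2 in the range of the knockout. Il25 was at 0.288 cpm in the ganglion of day 8 wild-type MC903 cohort B replicate 2 and at 0.708 cpm in that of day 12 TSLPR.KO ethanol replicate 4. In skin of aGr1 ethanol mice, Il17rb was at 1.65 cpm in replicate 2 and Tslp at 2.44 cpm in replicate 3. In cord, Il33 was at 235 cpm in uninjected ethanol replicate 1.

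In 3 cases the effect of MC903 differed between groups by the test of the difference itself. They were Tslp between days 2 and 1 (6.95 on the log2 scale), Il33 between aGr1 and uninjected wild-type skin at day 8 (-1.81) and Il7r between days 8 and 5 (1.73). The Il33 difference was not called with cohort B as the only wild-type libraries (adjusted p = 0.109) or against PBS-injected mice (-0.78, adjusted p = 0.553), and the Il7r difference was not called with cohort B alone (adjusted p = 0.196). Among the wild-type day 12 libraries, which entered no comparison, 13 of 18 held the marker genes of the other tissue.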

How the results depend on the processing

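The values below are the number of the 7 members called in a comparison. RLE scaling left all 38 counts within 1.5 times, no called member reversed its direction under any alternative, and the wild-type skin calls at day 8 and the cord calls for Il33 were kept in all alternatives, except Crlf2 in cohort B alone. With 1 fit over the 4 days, 0 members were called at day 1 (3 in the fit of that day alone) and 1 at day 2 (0). DESeq2 called 1 at day 2 (0), 4 at day 5 (2), 2 in TSLPR.KO skin at day 8 (1), 1 in ganglion at day 2 (0) and 1 between TSLPR.KO and wild-type ethanol skin (0), and among differences of effects 2 for aGr1 against wild type (1), 2 for TSLPR.KO (0) and 1 for BLT1.KO (0) against wild type, 1 for day 12 against 8 in TSLPR.KO (0), 3 for day 2 against 1 (1), 1 for day 5 against 2 (0), 1 for aGr1 against wild type in cord (0) and 2 between cohorts (0). Without a filter the counts were 1 at day 2, 2 in TSLPR.KO skin at day 8, 1 in ganglion at day 2, 1 in ganglion at day 8, 2 for TSLPR.KO against wild type, 2 between cohorts and 1 for TSLPR.KO against wild-type ethanol skin. With filterByExpr it was 2 for aGr1 against wild type. With cohort B alone, 0 were called for aGr1 against wild type and 0 for day 8 against 5. Without the libraries that stand apart, 1 was called at day 2 and 3 for day 2 against 1. The members behind these changes were mainly Tslp at day 2 (adjusted p 2.44e-06 in 1 fit over the 4 days and 6.18e-54 by DESeq2), Crlf2 and Il1rl1 at day 5, and Il33 in TSLPR.KO skin at day 8 (0.00491 by DESeq2 and 0.00188 without a filter), and the cause was not tested.

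With a replicate block, 1 was called at day 2, 2 in TSLPR.KO skin at day 8 (Il33 at 1.5, adjusted p = 0.00155) and 1 in PBS cord (Il33 at -1.24, adjusted p = 0.00012), Crlf2 was lost in PBS skin (1.44, adjusted p = 0.183) and Il17rb at day 1 (0.90, adjusted p = 0.0526); outside 2 ganglion comparisons, where it changed no call, the libraries share only a number. In PBS cord the deviations of same-numbered libraries were negatively correlated, and exchanging the numbers of the 2 MC903 libraries also called 1 member and 955 genes, against 224 genes with the numbers as given and 0 without a block.

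With each library left out in turn, counts ran from 1 to 4 in skin at day 1, 0 to 1 at day 2, 2 to 3 at day 5, 0 to 5 with PBS, 3 to 4 with aGr1, 1 to 2 in TSLPR.KO at day 8 and 5 to 7 in BLT1.KO, from 0 to 2 in ganglion at day 2, and from 0 to 2 in PBS cord. For differences they ran from 1 to 2 for aGr1, 0 to 2 for TSLPR.KO and 0 to 1 for BLT1.KO against wild type, 1 to 3 for day 2 against 1, 0 to 1 for day 8 against 5, 0 to 1 between cohorts and 0 to 1 for aGr1 in cord, and for levels 1 to 3 for BLT1.KO against wild-type ethanol skin and 2 to 3 for cord against ganglion. Depth limited Il25 in skin and Tslp in ganglion, where most libraries held 3 counts or fewer, and with 2 libraries in a group the test had few degrees of freedom.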
